A study of Caenorhabditis elegans with 2 samples.

Results

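The cnc genes of Caenorhabditis elegans encode caenacins, a family of small secreted antimicrobial peptides, and 10 of them are described here: cnc-1, cnc-2, cnc-3, cnc-4, cnc-5, cnc-6, cnc-7, cnc-8, cnc-10 and cnc-11. They were taken by name from the 19973 nuclear protein-coding genes of the annotation. The values are chromatin immunoprecipitation sequencing (ChIP-seq) regions of ELT-3, an epidermal GATA factor. Both samples are biological replicates of 1 group: whole L3 larvae, of both sexes together, of strain OP75, which has the genotype unc-119(ed3) III; wgIs75 and in which an eGFP fusion of ELT-3 was precipitated. As antibody target the labels name elt-3 itself, and they state neither the promoter of the transgene nor its expression level. There is no second condition, so every value below is a description with no p-value. Where it was computed, the same measure over all protein-coding genes or all regions is set beside it.

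Caenacins are released by the epidermis, the layer under the cuticle through which fungi such as Drechmeria coniospora enter the worm. cnc-2 is the best studied member: its expression in the epidermis after fungal infection depends on DBL-1, a TGF-beta ligand, whereas the related nlp peptide genes respond through a p38 MAP kinase pathway. GATA factors bind short DNA words around the core GATA, and ELT-3 is made mainly in the epidermis.

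The sequences on which the results turn are shown first, from the RefSeq copy of WBcel235 (ce11), 5′ to 3′ on the strand of the gene, with every GATA motif in capitals. The motif was AGATAA or AGATAG or TGATAA or TGATAG on either strand, and where it lies on the other strand the capitals read TTATCA or CTATCA or TTATCT. Those of cnc-8 (chrX:10306494-10306594, plus strand), cnc-2 (chrV:1450305-1450405, minus strand) and cnc-10 (chrV:11182762-11182862, plus strand) are the 101 bases centred on the strongest pooled summit of each gene. Those of cnc-7 (chrV:20393873-20394072) and cnc-5 (chrV:1445201-1445300), both on the plus strand, are upstream stretches, ending just before the first annotated base of cnc-7 and 81 bp before that of cnc-5. cnc-5 is shown as a gene with the motif upstream and no pooled region.
cnc-8: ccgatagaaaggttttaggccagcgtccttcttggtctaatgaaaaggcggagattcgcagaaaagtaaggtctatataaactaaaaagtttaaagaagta
cnc-2: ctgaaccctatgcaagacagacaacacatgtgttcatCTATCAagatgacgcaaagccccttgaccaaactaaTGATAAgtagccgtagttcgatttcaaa
cnc-7: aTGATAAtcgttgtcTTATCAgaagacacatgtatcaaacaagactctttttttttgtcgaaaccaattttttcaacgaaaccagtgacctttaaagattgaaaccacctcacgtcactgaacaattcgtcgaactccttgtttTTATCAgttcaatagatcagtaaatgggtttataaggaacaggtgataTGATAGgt
cnc-10: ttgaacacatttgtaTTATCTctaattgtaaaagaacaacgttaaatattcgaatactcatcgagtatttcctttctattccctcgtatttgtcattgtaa
cnc-5: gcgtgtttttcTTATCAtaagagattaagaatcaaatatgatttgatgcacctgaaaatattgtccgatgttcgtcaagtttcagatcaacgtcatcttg

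ELT-3 regions were listed at the 5′ ends of some cnc genes, and in all lists the window of cnc-6 was empty. The deposited ce11 lists comprise a pooled list of 21761 regions and a list of 30000 regions for each replicate. A further list holds 280 peaks that passed the irreproducible discovery rate (IDR) analysis of the authors. The deposit labels the pooled list as peaks and background for input to IDR, so a region listed there is not by itself an accepted peak. A region was given to a gene when its summit, the centre of the usual 356 bp region, lay from 2000 bp upstream of the 5′ end to the 3′ end. Of the 10 cnc genes, 5 had a pooled region, namely cnc-2, cnc-7, cnc-8, cnc-10 and cnc-11, against 60.4% of all protein-coding genes. In the replicate 1 list 8 of 10 had a region, against 71.7% of all genes, and in the replicate 2 list 5 of 10, against 72.5%. A region from each replicate list lay in the windows of 4 cnc genes, cnc-2, cnc-4, cnc-7 and cnc-8, against 56.9% of genes, though at cnc-4 the 2 regions were at different places. No cnc gene had an IDR peak, against 1.36% of genes. Counted by gene, the share was thus above that of genes at large in replicate 1 and below it in the other lists. With 10 genes, 1 gene more or less moves the share by 10 percentage points. In replicate 1, cnc-1, cnc-4 and cnc-5 were counted only through a summit that they share, of rank 14302. The higher share in replicate 1 depends on that summit. In replicate 2, cnc-3 and cnc-4 likewise share a summit, of rank 18193. The cnc genes are short, however, with windows of 2516 bp at the median, against 4027 bp for all protein-coding genes. Per length of sequence, the windows of the cnc genes, 21327 bp when joined, held 8 pooled summits, or 0.375 per kb, against 0.219 per kb over the joined windows of all genes. In replicate 1 the density was 0.328 per kb at cnc genes against 0.302 per kb at all genes, and in replicate 2 it was 0.375 against 0.304 per kb. Since 2000 bp of each window lie upstream, the shorter cnc windows hold relatively more upstream sequence and less gene body. The densities thus compare unlike sequence.

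**Figure D1:**
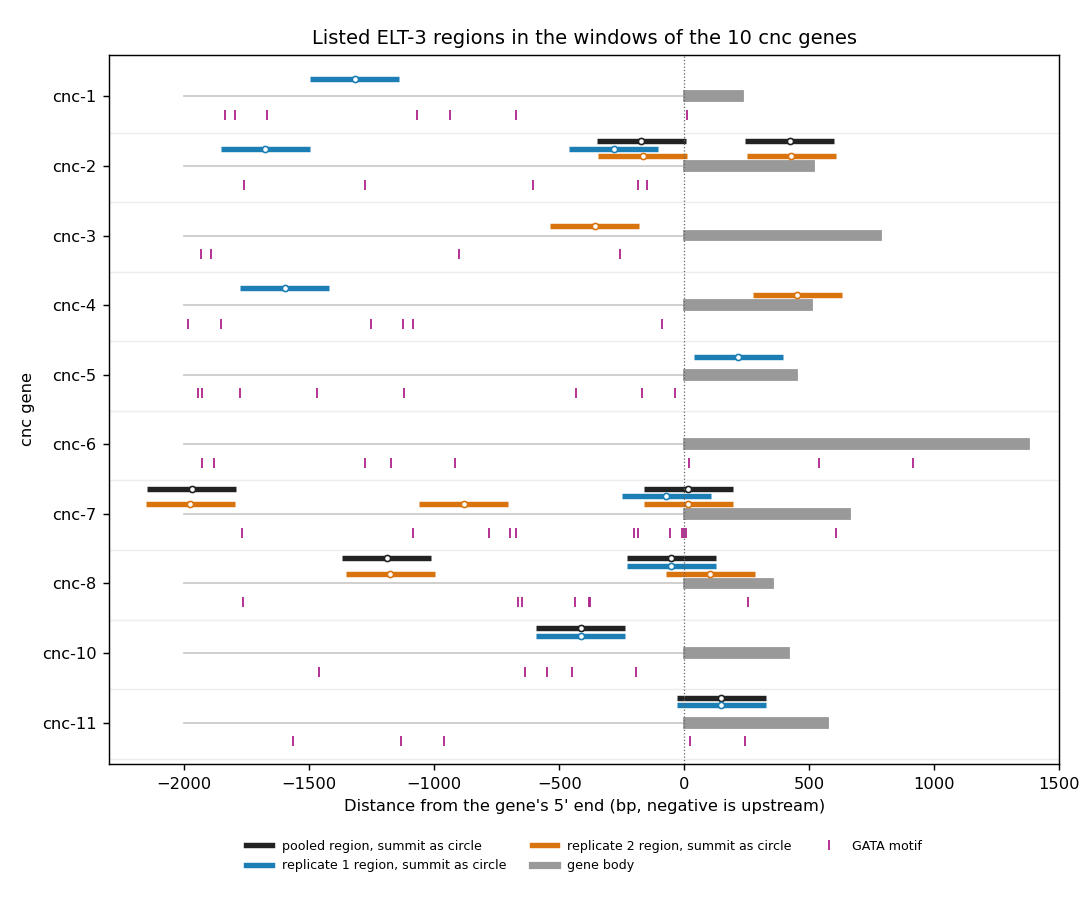
Listed ELT-3 regions along the windows of the 10 cnc genes, as distance from the 5′ end in bp (negative is upstream). Coloured bars are regions of the pooled, replicate 1 and replicate 2 lists with the summit as a circle. Grey boxes are gene bodies, and magenta ticks are GATA motifs. Regions of all 3 lists meet at the 5′ ends of cnc-7 and cnc-8. They also overlap upstream of cnc-2, where the replicate 1 region stops short of the 5′ end. cnc-6 has no region.

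Several of the regions lay close to a 5′ end. A pooled summit lay within 200 bp of the 5′ end of 4 of 10 cnc genes, cnc-2, cnc-7, cnc-8 and cnc-11, against 10.2% of protein-coding genes. The same held for 3 of 10 in replicate 1, cnc-7, cnc-8 and cnc-11, against 14.6%, and for 3 of 10 in replicate 2, cnc-2, cnc-7 and cnc-8, against 12.5%. The distance of 200 bp was chosen after the positions were seen and the genes are few, so these counts describe the 10 genes and no difference was tested. With a distance of 100 bp, 2 cnc genes had a pooled summit, and the share of all genes at that distance was not computed.

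cnc-8 had the strongest region of the family in the pooled and replicate 1 lists, while in replicate 2 cnc-7 and cnc-2 ranked above it. This gene (WBGene00009624) lies alone among the members on chromosome X, from 10306595 to 10306951 on the plus strand. Its strongest pooled region (10306366 to 10306721) had rank 734 with a signal of 35.5, the authors' own value, whose scale differs between lists. The summit lay 51 bp upstream of the 5′ end, in sequence between genes. This put cnc-8 at percentile 96.6 of protein-coding genes by strongest pooled signal, and it was the only member with 1 of the 1000 strongest pooled regions, which 4.5% of all genes had. The weakest IDR peak had a signal of 46.8. The same summit falls in the window of the neighbouring gene F41E7.7, 1251 bp upstream of its 5′ end.

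The replicates differed at cnc-8. In replicate 1 the region had the same summit, rank 322 and a signal of 27.8. Its −log10 q-value of 2.83 equalled the highest in that list. With rank 322 by signal, this value does not mark it as the strongest of the list. In replicate 2 the overlapping region had its summit 105 bp downstream of the 5′ end, in an intron of cnc-8, 156 bp from the pooled summit, with rank 16644 and a signal of 10.8. Signals ran from 6.45 to 95.2 in replicate 1 and from 8.47 to 53.9 in replicate 2, so the replicate 2 region was in the low part of its range. A weaker pooled region of rank 15937 lay 1189 bp upstream, with a replicate 2 region of rank 14420 beside it and none in replicate 1. The 5′ end nearest to that pooled summit was that of the neighbouring gene fipr-21, at 877 bp.

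**Figure D2:**
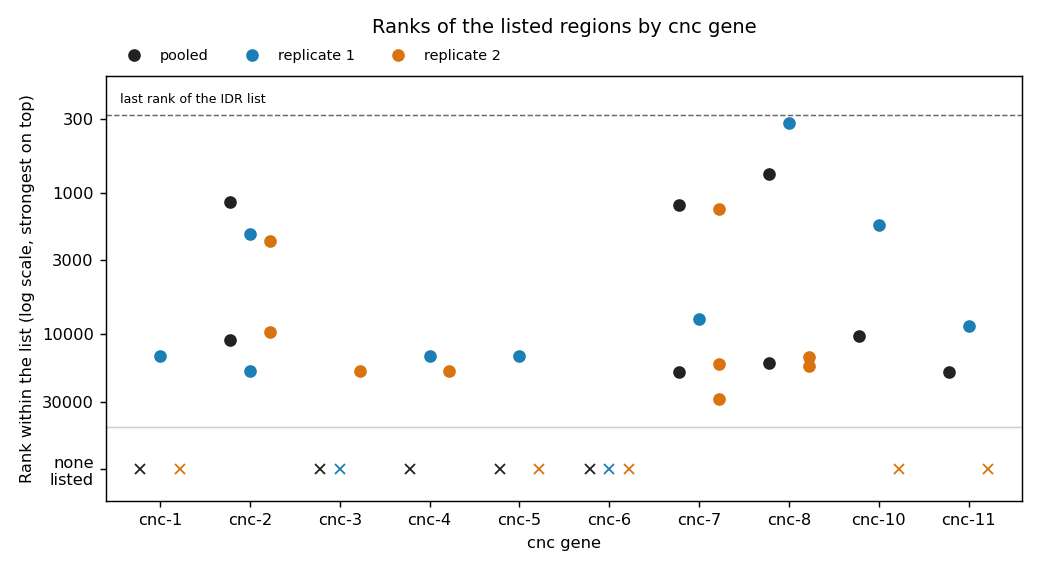
Rank of every listed region in the window of each cnc gene (vertical axis, log scale, strongest on top), by list; crosses mark genes with no region in that list and the dashed line is rank 280, the last of the IDR list. cnc-8 is highest at rank 322 in replicate 1 and 734 in the pooled list, cnc-2 and cnc-7 follow at pooled ranks 1165 and 1216, and cnc-6 has 3 crosses.

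Of the 3 members whose strongest pooled region was overlapped in both replicates, cnc-7 had the replicate summits closest to the pooled one. The gene (WBGene00010005) lies on chromosome V from 20394073 to 20394735 on the plus strand. Its strongest pooled region (20393912 to 20394267) had rank 1216 and a signal of 31.5, at percentile 94.6 of protein-coding genes, with the summit 17 bp downstream of the 5′ end in the 5′ UTR. In replicate 1 the summit was 72 bp upstream, with rank 7831 and a signal of 11.04. In replicate 2 it was at the pooled position, with rank 1300 and a signal of 19.2. Here replicate 2 gave the higher rank, the reverse of cnc-8. Other regions in the window were weaker, at pooled rank 18292 and at ranks 16115 and 28639 in replicate 2, all in coding exons of the upstream gene F53H2.1.

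cnc-2 had a region of rank 2173 or better in all 3 lists. The gene (WBGene00000556) lies on chromosome V from 1449665 to 1450183 on the minus strand. Its pooled region (1450177 to 1450532) had rank 1165 and a signal of 31.7, at percentile 94.8, with the summit 172 bp upstream in sequence between genes. In replicate 1 the summit lay 282 bp upstream, at rank 1964 and a signal of 16.1. In replicate 2 it lay 166 bp upstream, at rank 2173 and a signal of 17.5. The ranks in the replicates were thus close, with cnc-2 at percentile 91.5 of protein-coding genes in replicate 1 and 90.4 in replicate 2. A second pooled region, of rank 10902, had its summit in the 3′ UTR of cnc-2, where replicate 2 had rank 9556 and replicate 1 none. Replicate 1 also had a region of rank 18043 at 1675 bp upstream, in an intron of srj-23, a gene of a serpentine chemoreceptor family. The rank 1165 summit also lies in the window of srj-23, 1279 bp upstream of its 5′ end.

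cnc-10 and cnc-11 had regions in replicate 1 and not in replicate 2. The strongest region of cnc-10 (WBGene00012152, chromosome V, 11183225 to 11183643, plus strand) had its summit 413 bp upstream in both the pooled and the replicate 1 list. It had rank 1695 and a signal of 16.8 in replicate 1, at percentile 92.6 of protein-coding genes, and rank 10327 and a signal of 19.2 in the pooled list, at percentile 64.2. For cnc-11 (WBGene00044900, chromosome V, 1442342 to 1442917, plus strand) the summit lay 148 bp downstream of the 5′ end in the 5′ UTR. Its ranks were 8725 in replicate 1, with a signal of 10.7, and 18310 in the pooled list, with a signal of 16.1. Neither gene had a replicate 2 region in its window. The nearest replicate 2 summits were 1127 bp from the pooled summit of cnc-10 and 555 bp from that of cnc-11.

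cnc-11 is the first gene of a cluster of 6 cnc genes that spans 7842 bp of chromosome V, from 1442342 to 1450183, in the order cnc-11, cnc-1, cnc-5, cnc-4, cnc-3 and cnc-2, with no other protein-coding gene inside. Listed regions were unevenly placed along it. The pooled regions lay at its outer genes, cnc-11 and cnc-2, and none had its summit in the windows of cnc-1, cnc-3, cnc-4 or cnc-5. Between cnc-11 and cnc-2 replicate 1 had 1 region and replicate 2 had 2, all at different places. That of replicate 1, of rank 14302 with a signal of 9.02, had its summit in an intron of cnc-5, 217 bp downstream of the 5′ end. It also falls in the windows of cnc-1, 1318 bp upstream, and of cnc-4, 1597 bp upstream, and was counted as 1 summit. The stronger of replicate 2, of rank 4797, had its summit 128 bp past the 3′ end of cnc-11, which is in the window of no cnc gene. The weaker, of rank 18193 with a signal of 10.5, lay in the 3′ UTR of cnc-4 and 357 bp upstream of cnc-3. The remaining members of the cluster lie at 1444044 to 1444280 (cnc-1, WBGene00000555, minus strand), 1445381 to 1445832 (cnc-5, WBGene00000559, plus strand), 1447195 to 1447707 (cnc-4, WBGene00000558, plus strand) and 1448004 to 1448792 (cnc-3, WBGene00000557, plus strand). The models of cnc-1 and cnc-5 start at the coding sequence, so offsets at these genes are from the start codon.

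**Figure D3:**
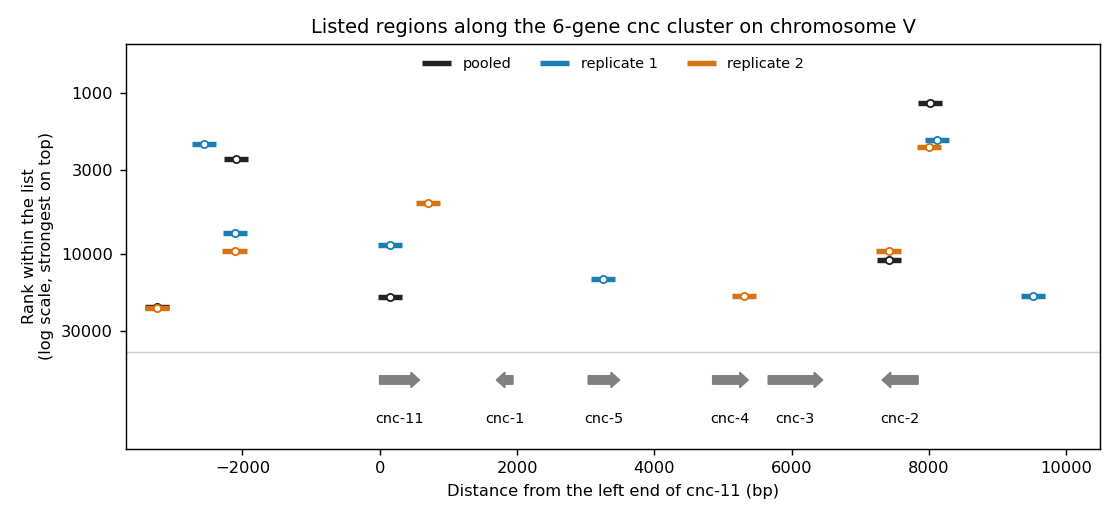
Listed regions along the cnc cluster of chromosome V as distance from the left end of cnc-11 in bp, with rank within the list on the vertical axis (log scale, strongest on top) and genes as arrows in the direction of transcription. The regions upstream of cnc-2, at ranks 1165, 1964 and 2173, are the strongest in the windows of the 6 genes, and no pooled region has its summit between cnc-11 and cnc-2.

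cnc-6 (WBGene00000560, chromosome III, 1763522 to 1764902, plus strand) had no region in any list, although its window of 3381 bp was the longest of the 10. The region nearest to being counted there was of replicate 1, rank 23154, with its summit 2136 bp upstream. The limit of 2000 bp left out stronger regions than the one it narrowly took in. Just inside it was the pooled region of rank 18292 at cnc-7, 1970 bp upstream. Just outside were the pooled regions of rank 2568, 2095 bp upstream of cnc-11 in an intron of R09B5.11, and of rank 954, 2293 bp upstream of cnc-8. That of rank 954 lay 227 bp upstream of the 5′ end of the neighbouring gene fipr-21. The −log10 q-values that the authors gave were 0.679 for the strongest pooled region of cnc-8, 0.457 for cnc-2, 0.434 for cnc-7, 0.0374 for cnc-10 and 0.0208 for cnc-11, all below 1, while the highest in the pooled list was 2.45. The nearest IDR peak to the 5′ end of a cnc gene was 87510 bp from cnc-8, and for the 6 clustered genes it was between 710864 and 718705 bp away.

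**Figure D4:**
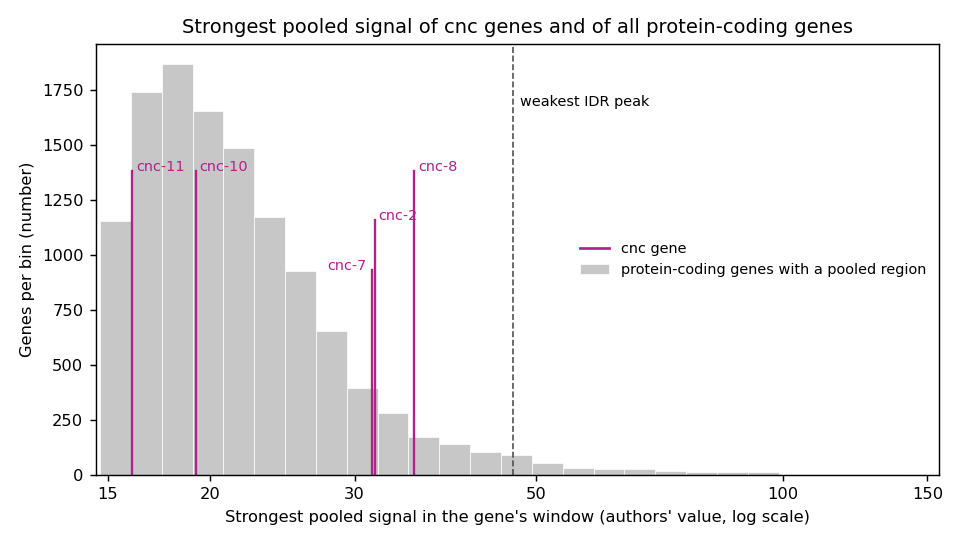
Strongest pooled signal in the window of the 5 cnc genes that had one (magenta lines) and of all protein-coding genes with a pooled region (grey bars, number of genes per bin, log axis). cnc-8, cnc-2 and cnc-7 lie in the upper tail at 35.5, 31.7 and 31.5, cnc-10 and cnc-11 lie within the bulk at 19.2 and 16.1, and all 5 are below the weakest IDR peak at 46.8.

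The GATA motif was near 3 of the 8 pooled summits, at cnc-2, cnc-7 and cnc-10. Over all pooled regions 23.9% had the motif within 50 bp of the summit. Among regions of rank 501 to 1500 the motif was near 2 of the 3 cnc summits and near 30.3% of all summits. This band was not among the comparisons planned beforehand and holds the 3 strongest cnc summits, so it is a description only. At cnc-2 the 101 bases printed above hold 2 motifs, TGATAG on the strand opposite to the gene and TGATAA on its own strand, the nearer with its centre 10 bp from the summit. At cnc-7 the summit window held 3 motifs, the nearest an AGATAA 8 bp from the summit. At cnc-10 a single AGATAA lay 32 bp from the summit. The strongest region, that of cnc-8, held none in its 356 bp, as did 40.8% of pooled regions, and 1 GATA core that is part of no motif lay within 50 bp of its summit. Windows of the same width centred 500 bp to the right of the same summits held the motif in 3 of 8 cases, against 20.5% over all pooled regions. The counts at and beside the cnc summits were thus equal, but they came from different summits. To the right, the motif lay beside both cnc-8 summits and that of cnc-11. No summit with the motif near it also had the motif on that side, and the left side was not searched. In the replicate lists the motif was within 50 bp of 2 of 7 summits in replicate 1 and 2 of 8 in replicate 2, against 23.0% over the replicate 1 list and 22.5% over the replicate 2 list.

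Motifs upstream were found at genes with and without a pooled region. Within 500 bp upstream, 7 of 10 cnc genes had a motif, against 71.4% of protein-coding genes, and the mean number of motifs was 1.6 at cnc genes and 1.37 at all genes. cnc-7 had 4, the first base of each at 199, 185, 56 and 8 bp upstream, all in the stretch printed above. cnc-2 had 2, at 185 and 149 bp upstream. cnc-8 had 3, at 437, 382 and 375 bp upstream, which all lie outside its strongest region. cnc-5 had 3 as well, at 432, 169 and 38 bp upstream, with no pooled region. cnc-10 had 2, at 448 and 192 bp upstream, the first of them near its pooled summit. cnc-4 and cnc-3 had 1 each, and cnc-1, cnc-6 and cnc-11 had none, although cnc-11 had a pooled region. A motif was thus upstream of 4 of the 5 cnc genes with a pooled region and of 3 of the 5 without.

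The replicates matched the pooled summits of cnc genes unevenly. Of the 8 summits, 1, that at the 5′ end of cnc-7, had a summit within 100 bp in both replicate lists, against 25.1% of all pooled regions. When any overlapping region counted, the strongest regions of cnc-2, cnc-7 and cnc-8 were in both lists, so 3 of 8, against 43.7%. The pooled list was made from both libraries, so a match is in part built in. Of the 5 weaker summits, those at cnc-10 and cnc-11 were in replicate 1 and those in the 3′ UTR of cnc-2 and upstream of cnc-7 and cnc-8 in replicate 2.

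Tandem copies can share reads, and how reads with several matches were handled is not stated in the labels or the deposited text. Of the 36-base words in each window, between 0 and 4.88% occurred more than once in the genome, the most at cnc-5, and none at cnc-7, cnc-8 and cnc-10. The pooled regions of cnc genes held no repeated 36-base word. In the replicate 1 region inside cnc-5 the share was 15.9%, and its part in that region was not tested.

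Other genes of epidermal immunity and tissue markers are set beside the cnc genes as counts, without a test and without regard to window length. These lists, like the members, were drawn up with earlier results of these data known. Of the 10 cnc genes 5 had a pooled region in the window and 1 had 1 of the 1000 strongest, and of the 11 nlp peptide genes nlp-24 to nlp-34 these numbers were 9 and 5. Over all protein-coding genes the shares were 60.4% and 4.5%. An IDR peak was in the window of 0 of 10 cnc genes, 3 of 11 nlp genes, 1 of 13 genes of the p38 and STAT-like arm, 0 of 10 genes of the DBL-1 arm, 1 of 8 epidermal markers and none of the 13 markers of other tissues, against 1.36% of all genes. The strongest nlp region, of rank 122, is shared by nlp-30, nlp-31 and nlp-34, whose windows overlap, and counts as 1 summit. These are the 3 nlp genes with an IDR peak, since nlp-24, next at a signal of 46.5, was below the weakest IDR peak at 46.8. They are also 3 of the 5 nlp genes with 1 of the 1000 strongest, so neither count is of separate summits. nlp-24 had rank 289, with the summit 130 bp upstream, and nlp-26 rank 953, with the summit 1354 bp upstream. Of 13 genes of the p38 and STAT-like arm, all had a pooled region. The strongest was at nipi-3, a pseudokinase gene, with rank 231 at 234 bp upstream. The next was at gpa-12, a G protein alpha subunit gene, with rank 847 at 3389 bp downstream of the 5′ end. Of 10 genes of the DBL-1 arm all had a pooled region, with ranks 400 at lon-1, 568 at sma-2, a SMAD gene, and 570 at sma-9, a cofactor gene of the SMADs. Of 8 epidermal markers 8 had a pooled region and 4 had 1 of the 1000 strongest, rol-6, sqt-3, lin-26 and lpr-3. In that order these summits lay 922 bp upstream, 394 bp downstream, 1729 bp downstream and 173 bp upstream. Of 5 intestinal markers 2 had a pooled region, of 3 body wall muscle markers 3, of 2 pharyngeal markers 2 and of 3 neuronal markers 1. Among these 13 genes unc-13 had 1 of the 1000 strongest, with the summit 18996 bp downstream of its 5′ end.

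Among the 9465 genes with a region in all 3 lists, those most like cnc-8 by best rank in the pooled, replicate 1 and replicate 2 lists were taf-4, ubh-1 and ubh-2. In that order the ranks were 734, 322 and 14420 for cnc-8, 640, 324 and 15454 for taf-4, and 577, 337 and 13396 for both ubh-1 and ubh-2, which share these regions. For cnc-8 the rank of 14420 is that of the replicate 2 region 1175 bp upstream. The replicate 2 region that overlaps the strongest pooled region had rank 16644, so the 3 ranks of cnc-8 are not of 1 place. The distances on the log10 scale were 0.0667 for taf-4 and 0.111 for ubh-1 and ubh-2. This likeness rests on 3 values a gene, from lists that share reads.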

How the data were processed

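Peak lists of ELT-3 ChIP-seq in 2 biological replicates were used as deposited on ce11. Per the README text in the deposit, the authors derived each replicate list from its alignments and a control, the pooled list from the alignments of both together with a control, and the IDR list from these 3 lists. Signal values and −log10 q-values are those the authors deposited. The caller, aligner, their versions, the scaling, the IDR threshold and the read depth are not stated in the labels or headers, so no counting error could be attached to a signal. Lists on ce10 were not used, since no genome of that build was at hand.

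Regions were ranked by signal within each list and placed by summit, in 1-based coordinates, on WBcel235, where every region lay within the chromosome of its name. Genes were those of Ensembl release 115. Windows, motif search and word counts were run in Python 3.11.15 with pandas 2.3.3 and numpy 2.4.6, and window assignment was tested on simulated summits. All 10 members are named, with neighbours that share a summit and list genes among the 1000 strongest regions. Members and lists were chosen with earlier results of these data known. No test was made, since there is 1 group.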

Additional observations from a re-analysis of the deposited data

How the results depend on the processing

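Of 45 alternative values, 34 stayed within 1.5 times the value reported. The number of cnc genes with a region, 5 in the pooled list, ran from 5 (without replicate 1) to 8 (without replicate 2) when a single replicate list, limited to the length of the pooled list, was used. Of the 8 genes, cnc-1, cnc-4 and cnc-5 were counted through the summit of rank 14302 that they share. The share of all genes was not computed at that length. The strongest rank, 734 in the pooled list, ran from 322 (without replicate 2) to 1300 (without replicate 1) with the complete list of a single replicate. With regions below the middle rank of the pooled list left out there were 4 summits, or 0.188 per kb. The density over all genes was not computed for this shortened list, so the all-gene density of the complete list is no measure for it. Matches in both replicates, 1 of 8 summits within 100 bp, were 0 within 50 bp, 3 within 200 bp and 3 by any overlap. The motif was near 3 summits, and the core GATA alone near 5 of 8, against 50.8% of all pooled regions. In place of the IDR list, the 1000 strongest pooled regions gave 1 gene. Summits within 200 bp of the 5′ end, 4 genes, fell to 2 genes within 100 bp, where the share of all genes was not computed. This distance, its alternatives and RefSeq gene bounds were chosen after seeing the data. The cause of these shifts was not tested. Matches in both replicates and the IDR list need both libraries, so leaving out a replicate gave no value there. With 2 replicates, unknown read depth and no control library used here, a gene with no listed region cannot be told from one with binding too weak to list.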

Other observations

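Beside cnc-8 on chromosome X lie fipr-21 (10304529 to 10304867) and fip-5 (10302741 to 10303143), both named as fungus-induced protein genes or their relatives and picked here after their values were seen. The strongest pooled region of fipr-21, of rank 954 with a signal of 33.3, had its summit 227 bp upstream of the 5′ end, at percentile 95.7 of protein-coding genes. It is the region named above as just outside the window of cnc-8. Its ranks were 1062 in replicate 1 and 11023 in replicate 2, so that here too, as at cnc-8, replicate 1 gave the higher rank. fip-5 had no pooled region, and its best ranks were 8692 in replicate 1 and 15719 in replicate 2.

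A further gene of the family, cnc-9, on chromosome V from 7399776 to 7400195, is not among the 10. It had no pooled region, and its best regions had rank 9458 in replicate 1, with the summit 536 bp upstream, and rank 7224 in replicate 2, with the summit 131 bp upstream.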
